A study of Mus musculus with 40 samples.

Results

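Immediate early genes were followed across the midbrain of wild-type and alpha-synuclein transgenic mice at a young and an older age. The 10 genes are Fos, Fosb, Junb, Egr1, Egr2, Nr4a1, Npas4, Arc, Dusp1 and Ier2, taken by name from the 20805 genes of the deposited expression table. All 10 are in that table with at least 1 read in every library, and 6 of them (Fos, Junb, Egr1, Arc, Nr4a1 and Dusp1) reached the mean normalized count of 50 that the study sets as its limit for testing, as did 10923 genes in all. Fosb, Egr2, Npas4 and Ier2 fell below that limit.

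Immediate early genes are switched on within minutes of synaptic activity, growth factors or stress, without the need for new protein. Calcium and MAP kinase signals reach transcription factors such as CREB and SRF that already sit at their promoters, and the transcripts are short-lived, so that their level follows the recent history of the tissue. In the brain they are widely read as marks of recently active neurons. Most code for transcription factors, while Arc acts at the synapse and Dusp1 shuts off the kinases that induced it.

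The study asked how RNA and its N6-methyladenosine (m6A) mark differ with age and with alpha-synuclein in the midbrain, the region of the dopaminergic neurons lost in Parkinson's disease. Both genotypes were male and on a C57BL/6J background. The transgenic animals (aSyn Tg) were homozygous for human [A30P] alpha-synuclein, which the methods place under the Thy-1 promoter, and the controls (Wt) were their wild-type littermates. The strain name in the methods belongs to a line with a Th promoter and a second mutation, so which cells express the transgene is not settled by the sources used here. Groups were Wt 3 mo, Wt 15 mo, aSyn Tg 3 mo and aSyn Tg 15 mo. Mice were anaesthetised with CO2 and killed by cervical dislocation. No stimulus is described, and the sources used here do not give the time between handling and freezing. RNA came from whole dissected midbrain.

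Expression was read in 19 input libraries, the part of the RNA not immunoprecipitated, with 4 for Wt 3 mo and 5 for each other group. Libraries go by their group and column number. They held 2163856 to 9195756 reads, the fewest in aSyn Tg 15 mo library 5. Levels are CPM, the reads of a gene scaled to the size of its library, and corrected by TMM. Thy1, the gene whose promoter the methods name for the transgene, stood at 259.7 to 333.9 CPM in the 9 Wt libraries and at 1351 to 2483 CPM in the 10 aSyn Tg libraries, without overlap. Th, the enzyme that makes the dopamine precursor, was present at 51.6 to 107.9 CPM and the dopamine transporter gene Slc6a3 at 67.2 to 172.2 CPM.

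The dissections differed in what lay beside the dopaminergic neurons, and these differences cross the groups compared below. In Wt 15 mo library 2, the 7 forebrain glutamatergic markers found in the table summed to 356.8 CPM, against 29.5 to 93.2 CPM in the 18 other libraries, and all 7 had their highest level there. Of these, Slc17a7 reached 224.0 and Tbr1 30.1 CPM. Serotonergic markers (Slc6a4, Tph2 and Fev) summed to 5.24 to 63.7 CPM in the Wt 15 mo libraries and to 94.8 to 223.1 CPM in all others. Thalamic markers summed to 500.7 to 1340 CPM in Wt 15 mo, highest in libraries 1 (1340 CPM) and 2 (1021 CPM), against 403.8 to 744.7 CPM in Wt 3 mo, 353.1 to 611.4 CPM in aSyn Tg 3 mo and 447.7 to 722.5 CPM in aSyn Tg 15 mo. Of their 6 genes tested, 6 had an unadjusted p of at most 0.05 with age in Wt (median log2 fold change 0.77) and 6 by genotype at 15 mo (median -0.64), and 0 passed the adjusted p (edgeR). Over all genes tested, 15.6% had such an unadjusted p with age in Wt and 11.2% by genotype at 15 mo (edgeR). Bulk RNA cannot tell fewer cells of a type from less RNA in each cell, and the part of these markers in the results below was not tested.

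The sequence before the start of transcription is shown for 4 members, because CREB acts on immediate early genes there. RefSeq (GRCm38.p6) gave a window of 250 bases before to 50 bases after the start for 7 of the 10 members. Arc, Egr1 and Ier2 have no entry. Windows were searched on both strands for TGACG, the core of the cAMP response element, for the full palindrome TGACGTCA, which holds the core on both strands, and for the CArG box bound by SRF. TGACG was found for 7 of 7 members with a window, against 20.8% of all 32851 windows and 23% of the 27025 genes. Egr2 has several windows, some of which hold no TGACG. For Npas4 the bases before the start all lie in annotated exon. Within these windows, TGACGTCA was found for Dusp1 alone (1.79% of all windows) and a CArG box for Egr2 alone (1.63%). Sequence farther from the start was not searched. A match of letters is a description and not a binding site. In the sequences, written 5′ to 3′ on the strand of the gene and each running to the first base of any annotated exon, capitals mark TGACG on either strand, or TGACGTCA as a whole.
Fos, chr12:85473640-85473889, plus strand: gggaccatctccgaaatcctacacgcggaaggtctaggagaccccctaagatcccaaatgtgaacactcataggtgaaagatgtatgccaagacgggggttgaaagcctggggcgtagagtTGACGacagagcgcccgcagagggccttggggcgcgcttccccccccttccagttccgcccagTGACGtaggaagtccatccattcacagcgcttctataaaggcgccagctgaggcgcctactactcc
Fosb, chr7:19310052-19310295, minus strand: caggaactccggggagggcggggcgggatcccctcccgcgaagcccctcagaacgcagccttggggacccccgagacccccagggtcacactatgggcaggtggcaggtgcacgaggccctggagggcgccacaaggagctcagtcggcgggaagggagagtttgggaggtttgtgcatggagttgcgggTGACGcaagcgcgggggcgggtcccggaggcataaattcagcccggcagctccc
Nr4a1, chr15:101266596-101266845, plus strand: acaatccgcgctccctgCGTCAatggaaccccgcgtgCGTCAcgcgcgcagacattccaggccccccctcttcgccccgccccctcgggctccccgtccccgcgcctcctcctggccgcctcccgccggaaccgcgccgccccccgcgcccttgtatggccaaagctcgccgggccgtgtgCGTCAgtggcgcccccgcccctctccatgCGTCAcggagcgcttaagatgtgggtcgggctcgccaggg
Dusp1, chr17:26508520-26508722, minus strand: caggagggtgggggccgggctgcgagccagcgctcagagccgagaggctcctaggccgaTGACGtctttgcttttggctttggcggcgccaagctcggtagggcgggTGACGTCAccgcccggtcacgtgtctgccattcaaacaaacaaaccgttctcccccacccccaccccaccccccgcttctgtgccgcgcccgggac

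Gene positions below are those of GENCODE M21 on GRCm38. Per kilobase of annotated exon, the level averaged over the 19 libraries ran from Arc at 13.6 CPM per kb, through Egr1 at 9.26, Fos at 6.33, Junb at 4.84, Dusp1 at 4.48, Nr4a1 at 3.66, Ier2 at 3.02 and Npas4 at 1.55, to Fosb at 0.426 and Egr2 at 0.405 CPM per kb. Arc lay above Egr1 in 18 of 19 libraries, and Ier2 above Npas4 and Npas4 above Fosb in 19 of 19, each by more than the SD between libraries. The other neighbours in this order differed by less than that SD. Junb lay above Dusp1 in only 11 of 19 libraries, and Fosb above Egr2 in 12 of 19. The length is that of all annotated exons of a gene joined, which can exceed a single transcript. It was 3311 nt for Dusp1 and 6243 nt for Fosb, where the transcripts used for the peaks below have 1990 and 3782 nt. Other lengths can change the order, which was not computed for them.

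Among the AP-1 members, Fos (chr12:85473890-85477273, plus strand), which pairs with Jun proteins to bind AP-1 sites, stood at 11.1, 13.1, 9.92 and 19.9 CPM in Wt 3 mo and at 14.2, 12.8, 11.96, 14.5 and 11.5 CPM in Wt 15 mo. In aSyn Tg it stood at 16.5, 13.6, 9.49, 25.6 and 16.4 CPM at 3 mo and at 17.01, 14.1, 14.8, 19.96 and 16.4 CPM at 15 mo. The 3 mo groups were widely spread in both genotypes and overlapped throughout. At 15 mo the spread was narrow, and a single aSyn Tg library, at 14.1 CPM, lay inside the Wt range.

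Junb (chr8:84974484-84978718, minus strand), a Jun protein that restrains c-Jun in AP-1, gave 10.6, 7.38, 8.76 and 10.6 CPM in Wt 3 mo and 9.48, 15.4, 9.78, 6.33 and 10.3 CPM in Wt 15 mo. In aSyn Tg it gave 11.6, 8.10, 8.90, 14.9 and 13.3 CPM at 3 mo and 15.3, 14.3, 14.8, 9.48 and 12.4 CPM at 15 mo. The highest of all 19 values was in Wt 15 mo library 2, just above aSyn Tg 15 mo library 2. Without regard to group the range was 2.43-fold. The 3′ end of Junb overlaps Prdx2, a peroxiredoxin gene, on the other strand, and the sources used here do not say whether reads were counted by strand.

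Fosb (chr7:19302696-19310051, minus strand), the third AP-1 member, had only 4 to 30 reads per library. Its mean was 2.35 ± 0.123 CPM (SD, n = 4) in Wt 3 mo, 2.76 ± 0.725 (n = 5) in Wt 15 mo, 2.41 ± 1.38 (n = 5) in aSyn Tg 3 mo and 3.07 ± 1.07 (n = 5) in aSyn Tg 15 mo. The spread was widest in aSyn Tg 3 mo, from 1.03 to 4.41 CPM, and every group lay within it or overlapped it.

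Egr1 (chr18:34859823-34864984, plus strand), a zinc finger transcription factor tied to synaptic plasticity, gave 29.9, 45.7, 33.6 and 32.7 CPM in Wt 3 mo and 37.4, 98.2, 28.5, 39.8 and 45.4 CPM in Wt 15 mo. In aSyn Tg it gave 49.4, 38.1, 25.1, 58.4 and 37.4 CPM at 3 mo and 42.4, 30.7, 44.7, 27.4 and 44.3 CPM at 15 mo. The value of 98.2 CPM, in Wt 15 mo library 2, was far above the other 4 of its group, and the next highest of all was aSyn Tg 3 mo library 5. Egr2 (chr10:67535475-67542188, plus strand), the family member best known from myelinating Schwann cells, had 2 to 12 reads per library and 0.517 to 2.65 CPM, and its highest value was again in Wt 15 mo library 2.

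Nr4a1 (chr15:101254269-101274795, plus strand) codes for Nur77, an orphan nuclear receptor, and its level was 12.7, 13.9, 9.59 and 13.3 CPM in Wt 3 mo and 9.23, 22.6, 8.48, 8.70 and 11.7 CPM in Wt 15 mo. In aSyn Tg it was 15.4, 8.96, 7.91, 17.1 and 19.4 CPM at 3 mo and 14.5, 10.7, 12.1, 14.5 and 13.6 CPM at 15 mo. In Wt 15 mo the same library 2 stood apart from the other 4, and without it the group would reach from 8.48 to 11.7 CPM. Npas4 (chr19:4984355-4990316, minus strand), a bHLH-PAS factor induced by neuronal activity alone, had 8 to 79 reads per library and means of 6.83 ± 0.981 CPM (SD, n = 4) in Wt 3 mo, 5.55 ± 1.202 (n = 5) in Wt 15 mo, 7.94 ± 2.53 (n = 5) in aSyn Tg 3 mo and 5.44 ± 2.54 (n = 5) in aSyn Tg 15 mo. Its highest value, 11.6 CPM, was in aSyn Tg 3 mo library 5 and its lowest, 3.17 CPM, in aSyn Tg 15 mo library 3.

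Arc (chr15:74669083-74672570, minus strand), whose protein removes AMPA receptors from synapses, was the most even of the abundant members in 3 of the 4 groups. It stood at 44.6, 39.6, 46.6 and 45.9 CPM in Wt 3 mo and at 30.7, 62.1, 43.9, 34.3 and 35.5 CPM in Wt 15 mo. In aSyn Tg it stood at 39.1, 41.2, 35.2, 46.2 and 42.7 CPM at 3 mo and at 39.1, 37.1, 40.1, 42.4 and 44.5 CPM at 15 mo. The coefficient of variation was 7.12% in Wt 3 mo, 10% in aSyn Tg 3 mo and 7.15% in aSyn Tg 15 mo but 30.5% in Wt 15 mo, where both the highest and the lowest of the 19 values lay.

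Dusp1 (chr17:26505590-26562128, minus strand), a phosphatase that inactivates MAP kinases, gave 16.2, 14.2, 13.6 and 19.1 CPM in Wt 3 mo and 13.5, 14.2, 14.3, 12.4 and 10.4 CPM in Wt 15 mo. In aSyn Tg it gave 14.3, 15.9, 15.4, 21.0 and 19.02 CPM at 3 mo and 14.5, 11.5, 15.8, 13.0 and 13.4 CPM at 15 mo. The 15 mo groups lay at the lower end in both genotypes, and each overlapped its 3 mo group. Ier2 (chr8:84661331-84662852, minus strand), a nuclear regulator of growth-factor responses, had 12 to 56 reads per library and ranged from 2.59 CPM in aSyn Tg 3 mo library 3 to 7.06 CPM in aSyn Tg 3 mo library 5, so that a single group held both ends of its range.

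**Figure D1:**
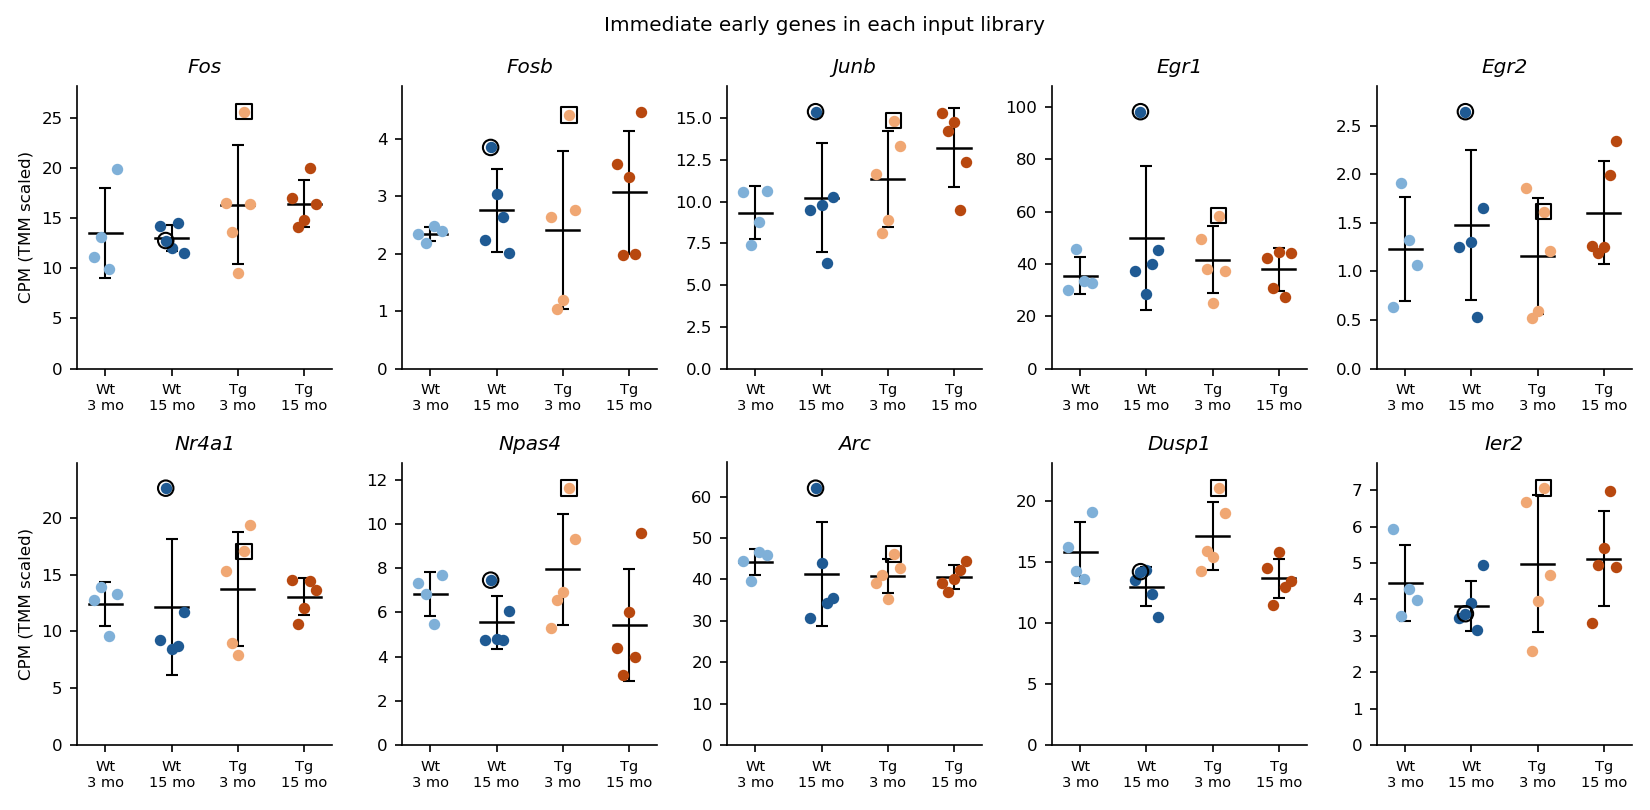
Level of each member (CPM, TMM scaled, linear axes from 0) in each of the 19 input libraries, as points by group, with the group mean as a line and the SD as error bars (n = 4 for Wt 3 mo, 5 for each other group). The ringed point is Wt 15 mo library 2 (Egr1 at 98.2 CPM) and the squared point aSyn Tg 3 mo library 5 (Fos at 25.6 CPM). The groups overlap for every member.

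A few libraries held most of the highest levels. Of the 10 members, 5 (Junb, Egr1, Egr2, Nr4a1 and Arc) had their highest level in Wt 15 mo library 2, 4 (Fos, Npas4, Dusp1 and Ier2) in aSyn Tg 3 mo library 5 and Fosb in aSyn Tg 15 mo library 6. In aSyn Tg 3 mo library 5, 10 of 10 members lay above their median over the libraries and 9 were among the highest 3 values. In Wt 15 mo library 2 it was 7 above the median and 6 among the highest 3. When log2(CPM + 1) of each of the 6 tested members was standardised over the libraries and averaged, these libraries scored 1.47 and 1.41 SD, the next highest (aSyn Tg 3 mo library 6) 0.745 SD, and the lowest, aSyn Tg 3 mo library 4 and Wt 15 mo library 4, -1.01 and -0.887 SD. The aSyn Tg 3 mo group thus held both the highest and the lowest library. Of the 10 members, 3 had their lowest level in aSyn Tg 3 mo library 3 and 3 in aSyn Tg 3 mo library 4.

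The 2 high libraries differed in the members that they led. Wt 15 mo library 2, the library with the forebrain markers, stood out in Egr1, Nr4a1 and Arc. It also held the highest Junb (15.4 CPM) and Egr2 (2.65 CPM, from 11 reads) of all libraries. Egr2 was close to that in aSyn Tg 15 mo library 6, at 2.34 CPM and likewise from 11 reads. Within its own group, Wt 15 mo library 2 held the highest Fosb (3.85 CPM) and Npas4 (7.46 CPM). Its Fos was 12.8, its Dusp1 14.2 and its Ier2 3.61 CPM, all within the range of the other libraries of its group. Of the 20 further immediate early regulators that were listed, 8 (Jund, Fosl1, Fosl2, Egr3, Egr4, Nr4a3, Klf10 and Ier5) also peaked there, with Egr3 at 19 CPM against a mean of 2.95 CPM over all libraries and Nr4a3 at 28.9 CPM against 11.6 CPM. In aSyn Tg 3 mo library 5 none of these 20 peaked, and its forebrain markers summed to 30.9 CPM, near the lowest of all libraries. The part of forebrain tissue in the first library's values was not tested.

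**Figure D2:**
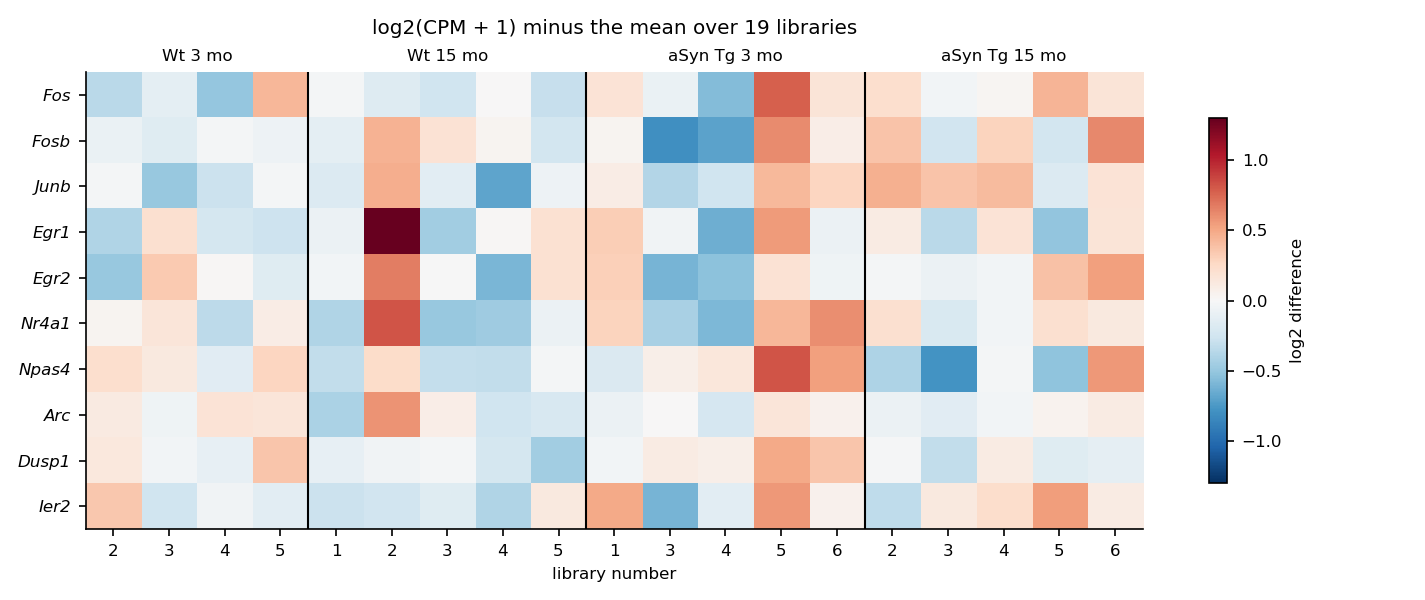
Difference of log2(CPM + 1) from its mean over the 19 libraries, for each member (rows) in each library (columns, by group and library number). Red is above and blue below the mean. Wt 15 mo library 2 is reddest in Egr1, and aSyn Tg 3 mo library 5 is above the mean for all 10 members.

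Whether the genes differed with age was asked within each genotype. Each comparison was fitted on its own pair of groups with the quasi-likelihood test of edgeR, over all genes at a mean normalized count of at least 50, and the call asked for 2 things, an adjusted p no higher than 0.05 and a change of 1.2-fold or more. In aSyn Tg, 15 mo against 3 mo, 0 of the 6 members tested changed, where 101 of 11024 genes (0.916%) did. Dusp1 had the largest difference, a log2 fold change of -0.32 (SE 0.13, 95% interval -0.60 to -0.04, unadjusted p = 0.028, edgeR adjusted p = 0.366), and was the only member with an unadjusted p of at most 0.05, as it was with DESeq2 and with limma voom. Over all genes tested, 11.1% had such a p (edgeR). Without aSyn Tg 3 mo library 5 or 6, or aSyn Tg 15 mo library 3 or 6, no member had one (edgeR). Junb was at 0.25 (-0.13 to 0.62), Egr1 at -0.12 (-0.53 to 0.30), Nr4a1 at -0.09 (-0.57 to 0.38) and Fos at -0.03 (-0.48 to 0.41). Arc was the most tightly bounded, at -0.01 (-0.19 to 0.16), an interval of 0.878 to 1.12 in fold change.

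In Wt, 15 mo against 3 mo, 0 of the 5 members tested changed, where 39 of 10820 genes (0.36%) did (edgeR), and none of the 5 had an unadjusted p of at most 0.05 with edgeR or DESeq2, against 1 with limma voom. The 39 calls over all genes ranged from 0 without Wt 3 mo library 4 to 327 without Wt 15 mo library 3. Dusp1 gave -0.28 (SE 0.13, 95% interval -0.57 to 0.01, edgeR adjusted p = 0.332), close to its value in aSyn Tg. Egr1 gave 0.52 (-0.11 to 1.14), which became 0.12 without Wt 15 mo library 2. Without that library Arc went from -0.10 to -0.30 (edgeR adjusted p = 0.212) and Nr4a1 from -0.01 to -0.35 (edgeR adjusted p = 0.349), and 3 of 5 members, these and Dusp1, had an unadjusted p of at most 0.05, with a median of -0.30 in place of -0.01. Without Wt 15 mo library 3 it was 2 of 5, Egr1 at 0.67 and Dusp1 at -0.32. In the main fit 15.6% of all genes tested had such a p (edgeR). The share of all genes in these left-out fits is not given here, so the counts are not read as a result about the members. Fos, at -0.01, went to 0.20 without Wt 3 mo library 5, and in aSyn Tg likewise from -0.03 to 0.20 without aSyn Tg 3 mo library 5.

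Genotype was compared at each age. At 3 mo, 0 of 6 members tested changed between aSyn Tg and Wt (edgeR, DESeq2 and limma voom, none with an unadjusted p of at most 0.05), where 95 of 11390 genes (0.834%) did with edgeR. The log2 fold changes of aSyn Tg against Wt were 0.35 for Fos (-0.16 to 0.87), 0.29 for Egr1 (-0.10 to 0.69), 0.27 for Junb (-0.11 to 0.66), 0.18 for Nr4a1 (-0.30 to 0.66), 0.13 for Dusp1 (-0.15 to 0.42) and -0.11 for Arc (-0.28 to 0.05). Their median was 0.23, beside -0.00 over all genes tested, and every interval included 0. The median was 0.11 without aSyn Tg 3 mo library 5 and 0.12 with the replicate block. That block enters the column number of each library as a factor in the fit. No label ties equal numbers to a shared batch or to a pair, so a value that moves with the block has no known source. With single libraries left out, 0 to 2 members had an unadjusted p of at most 0.05 (edgeR). It was 2 (Fos and Egr1) without aSyn Tg 3 mo library 4. It was 1 each without Wt 3 mo library 5 (Fos) and without aSyn Tg 3 mo library 3 (Junb) or 5 (Arc). In the main fit 12% of all genes tested had such a p (edgeR).

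At 15 mo, 0 of 5 members tested changed, where 23 of 10485 genes (0.219%) did (edgeR). Fos was higher in aSyn Tg by a log2 fold change of 0.33 (SE 0.12, 95% interval 0.06 to 0.59, unadjusted p = 0.0186, edgeR adjusted p = 0.342), and it alone had an unadjusted p of at most 0.05 with edgeR, DESeq2 and limma voom. Over all genes tested, 11.2% had such a p (edgeR). Fos had none with all 4 groups in 1 fit, with the replicate block or without Wt 15 mo library 5 (edgeR). Its mean was 16.4 ± 2.30 CPM (SD, n = 5) in aSyn Tg and 13.0 ± 1.32 CPM (n = 5) in Wt. Egr1 was at -0.36 (-0.97 to 0.24), and at 0.03 without Wt 15 mo library 2. Arc was at -0.02, and at 0.17 without that library, while Nr4a1 was at 0.10 (-0.44 to 0.64) and Dusp1 at 0.09 (-0.19 to 0.37).

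With both ages in a single fit and age as a covariate, 0 of 6 members tested changed with genotype, where 19 of 10923 genes (0.174%) did (edgeR). Junb, at 0.34 (SE 0.14, 95% interval 0.05 to 0.63, unadjusted p = 0.0231, edgeR adjusted p = 0.321), and Fos, at 0.33 (SE 0.15, 0.03 to 0.64, unadjusted p = 0.0343, edgeR adjusted p = 0.362), had the lowest p-values, and 2 of 6 members with an unadjusted p of at most 0.05 compare with 12.5% of all genes. The same count of 2 came from DESeq2 and from limma voom. Without aSyn Tg 3 mo library 5 it was 0 of 6, and it was Junb alone when library 2 or 5 of aSyn Tg 15 mo, 3 or 5 of Wt 15 mo or 2 or 4 of Wt 3 mo was left out. Egr1 was at -0.05 (-0.47 to 0.36), and at 0.16 without Wt 15 mo library 2. The interaction of genotype and age, which asks whether the age difference depends on genotype, was not called for any of 6 members, where 1 of 10923 genes (0.00915%) was (edgeR), and no member had an unadjusted p of at most 0.05 with any of the 3 tools. Egr1 had the largest interaction, at -0.64 (-1.43 to 0.16), which was -0.24 without Wt 15 mo library 2 and -0.79 without library 3 (unadjusted p = 0.0421, edgeR). Without library 2 Arc was at 0.28 (unadjusted p = 0.0490, edgeR). Since the comparisons share libraries, their values are given side by side and are not independent of each other.

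The 4 members below the count limit were fitted with all genes that had a read, and 0 of the 10 members changed in any of the comparisons in that fit either (edgeR, with at most 2 of 10 at an unadjusted p of at most 0.05 in a comparison). Of all genes so fitted, 1.23% were called with age in aSyn Tg, 0.274% with age in Wt, 0.779% by genotype at 3 mo, 0.202% by genotype at 15 mo, 0.12% over both ages and 0.0433% for the interaction. Npas4 was at -0.52 (95% interval -1.10 to 0.06) with age in aSyn Tg and at -0.29 (-0.69 to 0.12) in Wt. Ier2 was at 0.34 (-0.12 to 0.81) and Junb, which missed the limit in that pair, at 0.39 (-0.02 to 0.79) in aSyn Tg against Wt at 15 mo. Egr2, with the fewest reads, had intervals as wide as -0.53 to 1.33 (15 mo against 3 mo in Wt), and a difference within them was not detectable at this depth. No member's libraries were fully separated between groups in any of the 4 pairs, where 3.38% of the 10923 genes were separated in aSyn Tg between ages, 5.27% in Wt between ages, 4.3% by genotype at 3 mo and 2.76% at 15 mo.

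**Figure D3:**
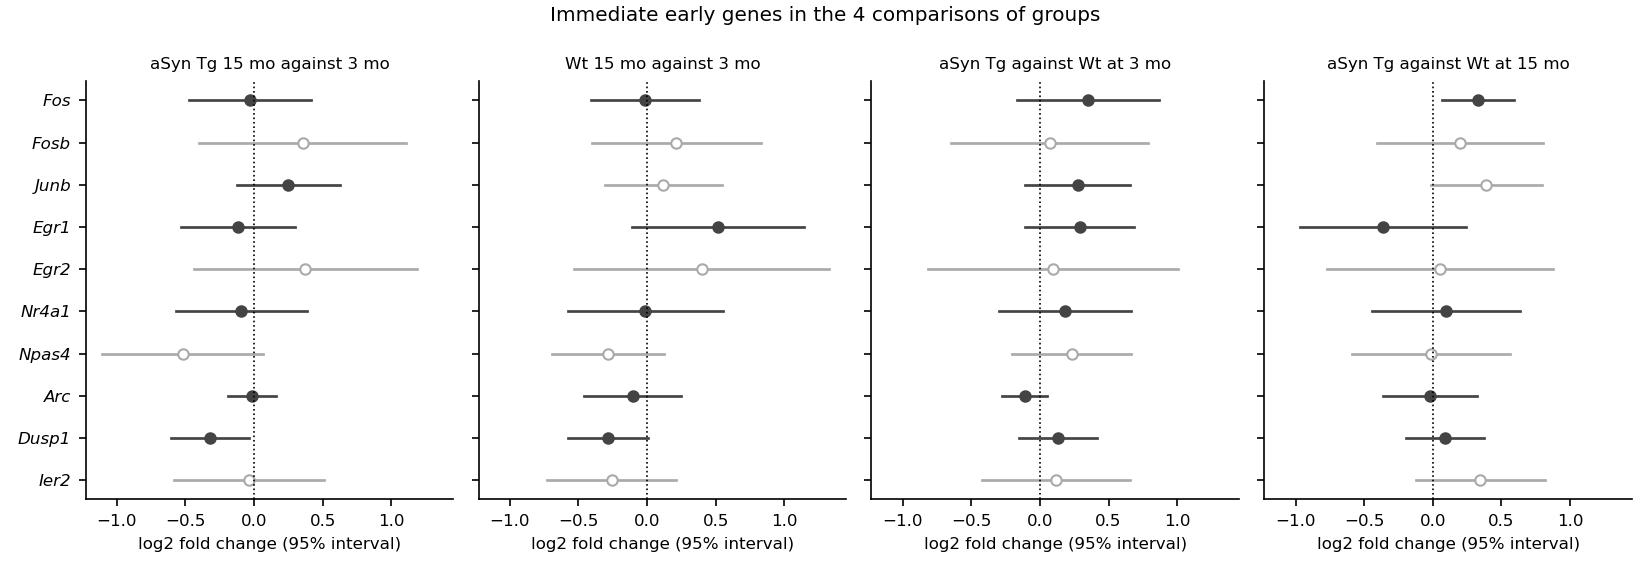
log2 fold change of each member (edgeR) with its 95% interval in the 4 comparisons of groups, where 0 is no difference. Filled dark points are members at a mean count of at least 50 and open grey points are members below it, fitted with no count limit. The intervals that exclude 0 are those of Dusp1 with age in aSyn Tg (-0.60 to -0.04) and of Fos by genotype at 15 mo (0.06 to 0.59), and neither passed the adjusted p.

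Genes around the members in the same pathway were described from lists. Of the 9 further immediate early regulators tested with age in aSyn Tg (among 20 listed, such as Jun, Nr4a2 and Btg2), 0 changed (edgeR; 2 with an unadjusted p of at most 0.05), with a median of -0.08 against 0.00 over all genes. Of 28 upstream kinases and factors tested (Srf, Creb1, Mef2 and MAP kinase genes among them), 0 changed (edgeR; 2 unadjusted), and of 8 further phosphatases and Sprouty genes 0 changed (edgeR; 2 unadjusted, median -0.10).

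Among the effector genes induced by activity, Vgf, a neuropeptide precursor of the granin family, fell with age in Wt by 0.38 on the log2 scale (SE 0.075, edgeR adjusted p = 0.0498), the only one of 16 tested (7 with an unadjusted p of at most 0.05, where 15.6% of all genes had one). With 1 library left out, Vgf passed only without Wt 15 mo library 3, and its adjusted p ran from 0.0139 to 0.173 (edgeR). In the glucocorticoid response list, Hif3a and Zbtb16, both induced by the glucocorticoid receptor, were lower in aSyn Tg than in Wt at 3 mo, by log2 fold changes of -0.74 (SE 0.16, edgeR adjusted p = 0.0404) and -0.35 (SE 0.078, edgeR adjusted p = 0.0480), as 2 of 11 tested (6 unadjusted, where 12% of all genes were). DESeq2 called 2 of that list and limma voom 1. With 1 library left out, Hif3a passed in 3 of 9 fits (without library 3 of Wt 3 mo, or library 3 or 6 of aSyn Tg 3 mo) and Zbtb16 in 2 of 9 (without aSyn Tg 3 mo library 3 or 6), with adjusted p up to 0.173 and 0.191 (edgeR). At 15 mo 0 of 10 genes of that list changed by genotype (edgeR; 3 unadjusted). No other gene of the immediate early, effector, phosphatase, upstream or glucocorticoid lists was called in the comparisons of groups, over both ages or for the interaction.

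The members were then compared with each other from library to library. Pearson's r of log2(CPM + 1) was above 0 in 43 of the 45 pairs over the 19 libraries, with a median of 0.39 and a range of -0.18 to 0.68. The mean r over all pairs of the 10918 genes so compared was 0.00132. After Benjamini-Hochberg adjustment over the 45 pairs, 9 had a permutation p of at most 0.05 for Pearson's r, 4 of them at 0.0489, and 0 for Spearman's rho. A shared library, with its depth and its tissue, lies behind every such pair of values.

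Nr4a1 took part in 5 of those 9 pairs. It correlated with Egr1 (r = 0.657, permutation p = 0.00171, adjusted p = 0.0384, rho = 0.542, p = 0.0180, adjusted p = 0.115), Egr2 (r = 0.655), Junb (r = 0.638), Arc (r = 0.615) and Fosb (r = 0.571). The highest r was between Npas4 and Dusp1, at 0.684 (permutation p = 0.00137, adjusted p = 0.0384, rho = 0.574, p = 0.0119, adjusted p = 0.0894). At the other end, Egr1 and Dusp1 gave 0.0641 and Egr2 and Dusp1 -0.176.

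When the 2 libraries farthest from the median of the members' mean, Wt 15 mo library 2 and aSyn Tg 3 mo library 5, were left out, r between Egr1 and Nr4a1 became 0.391 and between Arc and Nr4a1 0.368. That between Npas4 and Dusp1 became 0.592 and that between Fos and Nr4a1 went from 0.515 to 0.621. The median over the pairs became 0.285, with 36 of 45 above 0, and 0 pairs passed the adjusted p over these 17 libraries. The libraries left out were chosen by the levels of the members themselves. A lower r is therefore in part given by that choice, and the smaller number of libraries also raises the p-values. Egr2 and Nr4a1 kept an r of 0.544, Junb and Nr4a1 of 0.522 and Fosb and Junb of 0.485. When group means were taken out, all 45 pairs were above 0 with a median of 0.496, and 0 passed, the lowest adjusted p being 0.0684. Against the mean of the other 5 tested members, Nr4a1 had the highest r, 0.819, and still 0.760 without those libraries, while Egr1 went from 0.509 to 0.146.

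**Figure D4:**
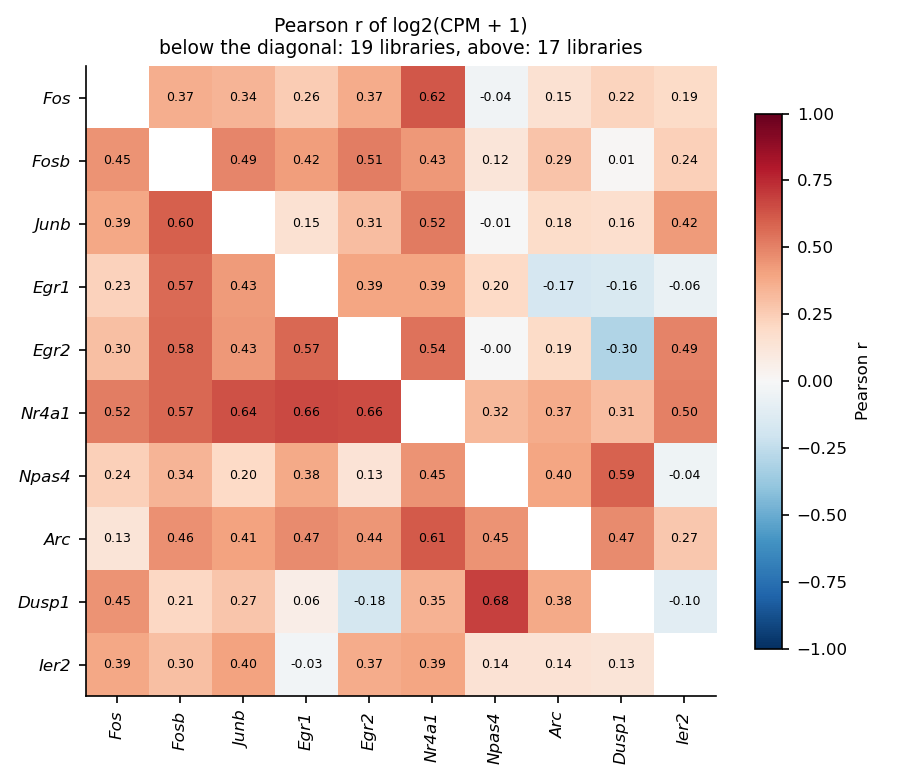
Pearson's r of log2(CPM + 1) between members, over 19 libraries below the diagonal and over 17 above it (without Wt 15 mo library 2 and aSyn Tg 3 mo library 5). Red is positive and blue negative. The row and column of Nr4a1 hold the most high values, and 0 pairs pass the adjusted p above the diagonal.

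The 10 genes outside the members whose levels most resembled the members' mean, over the 19 libraries, were Mex3b (r = 0.82), Csrnp2 (0.79), Fam212b (0.71), Adamts1 (0.70), Wiz (0.69), Urb1 (0.67), Zfp568 (0.67), Ano1 (0.66), Sec14l1 (0.66) and Cdc40 (0.65). Mex3b codes for an RNA-binding protein and Adamts1 for a secreted protease. Without the 2 libraries named above, Csrnp2 gave 0.709 and Mex3b 0.698. With group means taken out, Csrnp2 (0.83), Mex3b (0.81) and Wiz (0.80) led the list, and Smad3, a transcription factor of the TGF-beta pathway, joined it at 0.75. These genes were ranked for likeness, so the values of r are a description.

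The m6A mark is written on many mRNAs in the nucleus, most often near the stop codon, and is known to shorten the life of many transcripts. Here it is known from lists of peaks, regions where RNA fragments bound by an m6A antibody outnumber the input, with 1 consensus list per group. The authors called the peaks over whole groups, and a fold enrichment is their single value per group, with no SD or n. The fourth list carries no group in its name and was taken as aSyn Tg 15 mo because the other 3 groups are named. The lists hold 13860 peaks for Wt 3 mo, 14123 for Wt 15 mo, 13327 for aSyn Tg 3 mo and 13027 for aSyn Tg 15 mo, with median fold enrichments of 4.7, 4.94, 4.74 and 5.22.

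A peak was listed for 8 of the 10 members in Wt 3 mo, Wt 15 mo and aSyn Tg 3 mo and for 7 in aSyn Tg 15 mo. Of genes at a mean count of at least 50, 54%, 54.3%, 52.2% and 52.5% had a peak in the 4 lists, and of those between 5 and 50, 16%, 15.7%, 14.4% and 15.1%. Fos and Egr2 had none in any list, although Fos had 40 to 174 reads in each input library and more reads in all (1413) than Npas4 (638) or Fosb (257), which had peaks. Dusp1 had peaks in 3 lists, at fold enrichments of 3.51 to 4.05, and none in aSyn Tg 15 mo. At a fold enrichment of at least 4 the counts were 7, 8, 8 and 6.

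Over the 4 lists the members had 56 peaks, of which 26 lay mostly in coding sequence, 29 mostly in the 3′ untranslated region and 1, in Dusp1, mostly before the start codon. A stop codon lay inside 21 of the 56 peaks, from 7 members, and 29 had their midpoint within 300 nt of it. Peaks that shared at least 1 base formed 17 regions, of which 8 were in all 4 lists, 2 in 3, 2 in 2 and 5 in 1. When at least 50% of the shorter peak had to be shared, 18 regions resulted, with 9 in all 4 lists. The regions in all lists belonged to Fosb, Junb, Egr1, Nr4a1, Arc and Ier2, while Egr1 and Nr4a1 each had a further region that was not.

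Fosb had a single region over its stop codon, with fold enrichments of 10.1 in Wt 3 mo, 15.1 in Wt 15 mo, 35.4 in aSyn Tg 3 mo and 22.2 in aSyn Tg 15 mo. Ier2 had a pair of regions, at 18.4, 13.7, 13.9 and 19.1 for the one within the 3′ untranslated region and at 40.3, 7.09, 12.4 and 17.6 for the one at or just after the stop codon, in the same order of groups. Both genes had few input reads (4 to 30 and 12 to 56 per library), the part of which in these ratios was not tested. The values of different genes are not set against each other here, because an enrichment depends on the width of the peak and the input below it.

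Egr1 had its main region around the stop codon, with highest values of 9.3, 8.54, 9.94 and 8.49, and a weaker one at 2.56 to 3.02 that was not listed in Wt 15 mo. In aSyn Tg 3 mo the main region was 1 peak of 1346 nt, where each of the other lists cut it into separate peaks. Junb had a region in its coding sequence at 8.76, 5.49, 4.58 and 5.73 and another just after the stop codon at 4.82, 5.97, 4.85 and 3.25. Arc likewise had one in its coding sequence at 4.66, 6.14, 4.1 and 4.3 and one at the start of its 3′ untranslated region at 5.33, 7.33, 6.01 and 5.5, and these count as a single region where 1 shared base suffices. Nr4a1 had a region over the stop codon at 3.98, 4.86, 5.34 and 3.52. Another, in its coding sequence, was listed only in Wt 3 mo (3.7) and aSyn Tg 15 mo (3.87).

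Npas4 was the exception, since its 6 peaks formed 5 regions and 4 of these were each in only 1 list, a different list for each. Fold enrichments of 16.5 in Wt 15 mo and of 11.8 in aSyn Tg 15 mo belonged to different places on the transcript. With 8 to 79 input reads per library, absence of a peak from a list is not absence of the mark.

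The sequence of the shared part of a region is given for Junb, Arc and Nr4a1, as the coding part of the stretch that all 4 lists cover, from GRCm38. Capitals mark GGAC, a common core of the m6A consensus, on the transcript strand. GGAC was in 46 of the 56 member peaks. Of all peaks of a single block, 74.09% held it in Wt 3 mo, 73.98% in Wt 15 mo, 73.95% in aSyn Tg 3 mo and 75.31% in aSyn Tg 15 mo. In the central 100 nt of peaks at least that long, it was in 8 of 13 member peaks in Wt 3 mo, 9 of 12 in Wt 15 mo, 8 of 13 in aSyn Tg 3 mo and 7 of 11 in aSyn Tg 15 mo, where 50.5%, 51.2%, 52.5% and 53.8% of all peaks of a single block held it. The sequence shown for Junb holds 3 GGAC, and those shown for Arc and Nr4a1 hold 1 each. The one for Nr4a1 is cut at the stop codon, past which the shared stretch runs on.
Junb, chr8:84978007-84978125, minus strand: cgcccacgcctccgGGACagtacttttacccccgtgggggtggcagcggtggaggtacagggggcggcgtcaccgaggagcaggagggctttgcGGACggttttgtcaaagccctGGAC
Arc, chr15:74671641-74671911, minus strand: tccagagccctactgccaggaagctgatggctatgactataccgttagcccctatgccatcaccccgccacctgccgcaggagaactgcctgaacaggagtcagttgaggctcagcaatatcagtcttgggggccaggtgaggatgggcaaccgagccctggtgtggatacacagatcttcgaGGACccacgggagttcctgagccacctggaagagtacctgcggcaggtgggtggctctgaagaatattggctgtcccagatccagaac
Nr4a1, chr15:101274226-101274252, plus strand: atctttatGGACacattgtctttctga

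**Figure D5:**
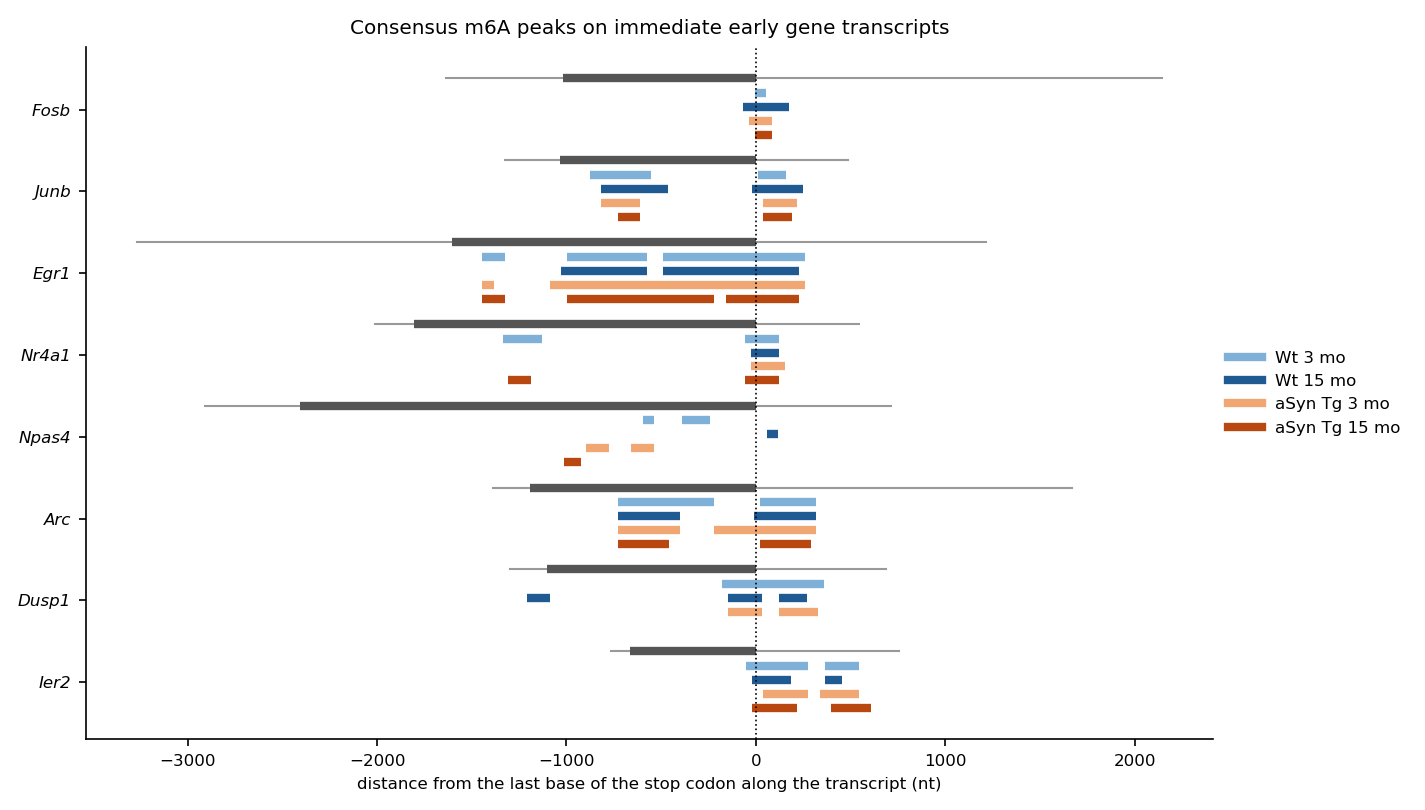
Consensus m6A peaks of the 8 members that have any, as coloured bars by group, against the distance along the transcript from the end of the stop codon (nt, dotted line at 0). The thick grey bar is the coding sequence and the thin line the rest of the transcript. Fosb, Junb, Egr1, Nr4a1, Arc and Ier2 each have a region that recurs in all 4 groups. Egr1 and Nr4a1 each have a further region that does not. Most regions of Npas4 are each in only 1 list, and that list differs from region to region. Dusp1 has no peak in aSyn Tg 15 mo.

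Differences in m6A between groups were read from the authors' 6 lists of differential peaks, each a pair of groups at a false discovery rate of at most 0.05. None of the 10 members was in any list, at a fold change of at least 1.2 or of at least 1.5. At 1.2 the lists hold 90 to 605 peaks, on 0.769% to 4.9% of the genes at a mean count of at least 50. Dusp1, whose peaks were missing from the consensus list of aSyn Tg 15 mo, was thus in no list of differences either. Of the listed pathway genes, named here after their entries were seen, Vgf was in 4 of the 6 lists and Jund, a Jun protein with steadier expression, Scg2 and Prkaca were in 3, each of those 3 lists having Wt 3 mo as the reference.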

How the data were processed

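RNA of whole midbrain was split by the authors into an input and an m6A immunoprecipitate. Per the methods, reads were trimmed with Cutadapt, aligned with STAR to mm10 and counted with featureCounts. The labels name mm9 and DESeq, and the coordinates in the deposited lists fell inside their named genes on GRCm38. The sources used here do not give the strand setting of the counting. The deposited expression values are a signal, gene counts divided by a size factor. Every one of 434011 values was a whole multiple of 1 read (100% within 0.01). Read counts were therefore recovered from the deposited signal for 21 columns, all of labelled groups. They held 19 libraries, because aSyn Tg 15 mo libraries 2 and 4 were each read from a second comparison as well. A further 36 columns of single libraries were not used. The deposited peak lists give the fold enrichment of immunoprecipitate over input as a ratio, the log2 fold of the differential lists and a log10 p-value or q-value as a score. Columns of the authors' own gene comparisons hold fold changes and p-values and were not used.

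The planned test had assumed 5 libraries in each group and counts as deposited. Counts were scaled by TMM and tested with edgeR 4.0.16 (R 4.3.3), with limma 3.58.1 and DESeq2 1.42.0 as alternatives, over genes at a mean normalized count of at least 50. Calls needed an adjusted p no higher than 0.05 and a change of 1.2-fold or more, after the study's limits. The gene-wise tests were checked on simulated data. Correlations used log2(CPM + 1) and 100000 permutations (scipy 1.17.1), and figures matplotlib 3.10.9. The named genes are the 10 members, the 10 genes most like their mean in each form of the correlation, and the listed pathway genes that were called, a few results of which are not reported here. The members and lists were chosen with earlier results of these data known. Labels describe 40 samples, 5 per group for input and 5 for immunoprecipitate. Some column numbers of aSyn Tg differ from the labelled ones, so columns were placed by group only. The methods give 5 mice per group but no label ties a library to an animal, so p-values measure the spread between libraries, which may in part be technical. Peaks in several blocks (1493 to 1867 per list) were not read for motifs.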

Additional observations from a re-analysis of the deposited data

Results flagged for a closer look

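In Wt 15 mo, the highest library for Egr1 stood at 98.2 CPM, with the other 4 libraries between 28.5 and 45.4 CPM, a gap of 0.756 of the whole range. The highest library for Nr4a1 in the same group stood at 22.6 CPM, with the others between 8.48 and 11.7 CPM, a gap of 0.77 of the range. Both values came from library 2 and passed Dixon's 95% limit of 0.71 for 5 samples. Chance gives such a value in about 1 in 20 groups, and 2 were seen in 40 combinations of member and group. The forebrain markers of that library are given in the text, and their part in these values was not tested.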

How the results depend on the processing

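The count of members called was 0 in each comparison under every alternative run: DESeq2, limma voom, RLE or upper quartile scaling, a mean count of at least 10 or no limit, all groups in a single fit, 1 or 2 factors of unwanted variation, no fold limit, and each library left out. The lowest adjusted p of any member under any setting was 0.112 (Fos by genotype at 15 mo, 2 factors of unwanted variation, edgeR). Of 764 member values under alternatives, 753 moved by less than the limit set by their error and 11 moved by more, of which those for Egr1, Arc, Nr4a1 and Fos without 1 library are in the text.

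Same-numbered libraries of 2 groups had deviations from their group means that correlated at -0.281 to 0.325. Libraries of different numbers were not compared in this way, so these values cannot tell whether library numbers pair the samples. The replicate block gave 0 members called in every comparison, and 43, 4, 46, 39, 14 and 1 calls over all genes, against 101, 39, 95, 23, 19 and 1 without it. With the replicate block Egr1 by genotype at 3 mo was 0.09 in place of 0.29 and Nr4a1 -0.13 in place of 0.18.

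With single libraries left out, the calls over all genes were 52 to 134, 0 to 327, 28 to 166, 11 to 42, 15 to 25 and 0 to 20 in the same order, with age in aSyn Tg and in Wt, by genotype at 3 mo, at 15 mo and over both ages, and for the interaction. For Vgf, Hif3a and Zbtb16 leaving out libraries was chosen after seeing the data.

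With no count limit the calls over all genes were 256, 57, 162, 42, 25 and 9, and with DESeq2 159, 118, 105, 88, 41 and 23. The 9 correlated pairs became 5 with a pseudocount of 0.5, 0 without the 2 libraries farthest from the median and 0 for deviations from group means. The cause was not tested. Low read counts limit Egr2 and Fosb most.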
